A study of Rattus norvegicus with 3 samples.

Results

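The tumor necrosis factor (TNF) superfamily was examined in the rat osteosarcoma line COS1NR, the rat malignant fibrous histiocytoma (MFH) line MFH1NR and rat bone marrow mesenchymal stem cells (MSCs). Its genes were taken by name from the genes with a named probe on the array: symbols that begin with Tnfsf, Tnfrsf or Traf and a number, together with Tnf, Lta, Ltb, Ltbr, Fas, Faslg, Cd40, Cd40lg, Cd27, Cd70 and Ngfr. This gave 37 of the 13301 named genes with a value, measured by 43 probes. They comprised genes of 13 ligands, 17 receptors, 4 TRAF proteins and 3 proteins named for their interaction with TRAF3. A further 14 protein-coding genes of the same names had no named probe and were not analysed here, among them the receptor RANK (Tnfrsf11a), Cd27, Traf1, Traf3 and Traf5.

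Ligands of this superfamily form trimers, mostly anchored in the cell membrane, and engage receptors with cysteine-rich extracellular repeats. Receptors with a death domain can recruit caspase-8 through adaptor proteins, whereas the others bind TRAF proteins, which pass the signal to NF-κB and to MAP kinases. In bone, the ligand RANKL (Tnfsf11) of stromal and osteoblastic cells drives osteoclast formation through RANK, and osteoprotegerin (Tnfrsf11b) is a secreted decoy receptor that captures RANKL.

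Both sarcoma lines had been established from tumors induced in F344 rats with 4-HAQO, and the methods of the study describe them as bearing p53 mutations. The MSCs came from the femur marrow of F344 rats, were obtained by culture on plastic without any sorting by surface markers, and were kept in medium richer in serum than that of the lines. The age of the rats is not given in the sources used here. Cy3-labeled cRNA of each cell type was hybridized to 1 whole rat genome array, so that differences have no replicate check and no test, and each sarcoma line is a single line.

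Between 56.6% and 59.7% of the spots that are not controls were well above background by the call of the scanner software, which is used throughout as the criterion of detection. COS1NR and MFH1NR shared a slide and a scan, whereas the MSC array lay on another slide, so in the comparisons with MSCs the cell type cannot be told apart from the slide. The processed intensity of a bright spot carried a median error of 10.02% to 10.06% for the probes of the family by the software's own model, which covers neither cultures nor labeling. Of the 4 MSC markers, CD73, CD90, CD105 and CD44, all were detected in MSCs, while CD105 (Eng) was not detected in either sarcoma and CD90 (Thy1) was not detected in COS1NR. Of 5 osteoblast markers with a probe, all were detected in MFH1NR and all but Sp7 in MSCs and COS1NR, and against MSCs 3 were at least 2-fold lower in COS1NR, and 2 were lower and Sp7 higher in MFH1NR. All 10 macrophage markers were detected on the MSC array, with a summed intensity, relative to the 75th percentile of the array, of 100.7 (MSCs), 8.93 (COS1NR) and 4.23 (MFH1NR). Not detected in either sarcoma were Itgam, Ptprc, Mrc1, Cd163 and Fcgr1a, which could thus be counted only as lower. Each of the 10 was at least 2-fold lower in both sarcomas than in MSCs. Of all named genes detected on at least 1 array, 19.4% were at least 2-fold lower than in MSCs in COS1NR and 21.2% in MFH1NR. The share lower in both was 12.9%, and 20.0% and 19.0% were higher in COS1NR and MFH1NR.

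Of the 37 genes, 26 were detected in MSCs, 20 in COS1NR, 18 in MFH1NR and 16 on all 3 arrays. Tnf, Ltb, Tnfsf9, Tnfsf11, Tnfrsf11b and Tnfrsf19 were detected in MSCs alone, Faslg and Tnfrsf18 in MFH1NR alone, and no gene in COS1NR alone. In the following, intensities are the processed intensities of each array as deposited, and ratios were taken after each array was scaled to its 75th percentile, which was 589 (MSCs), 774 (COS1NR) and 994 (MFH1NR). Where a probe was not detected on one array of a comparison, only a bound is given, set by the weakest detected probe of that array, at 17.98 for MSCs, 29.4 for COS1NR and 30.1 for MFH1NR, or by the signal of the dim probe itself where that was higher. Where it was detected on neither array, no ratio is given. Values listed without the name of the cells follow the order MSCs, COS1NR, MFH1NR, and pairs of ratios to MSCs give COS1NR first.

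**Figure D1:**
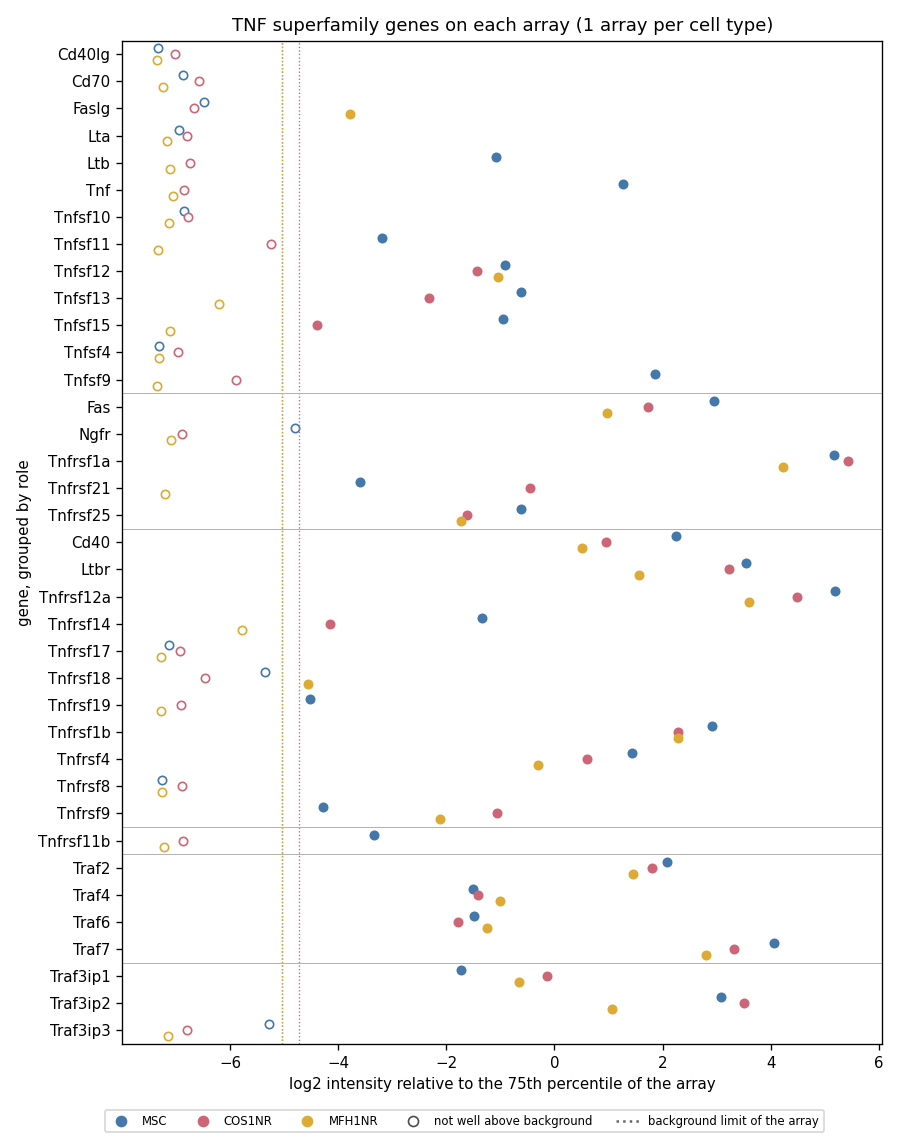
Log2 intensity of each of the 37 genes after scaling to the 75th percentile, with 1 point per array and genes grouped by role (ligands, death-domain receptors, other receptors, the soluble receptor, TRAFs, TRAF3-interacting proteins); open points were not well above background and dotted lines mark the background limit of each array. Tnf, Ltb and Tnfsf9 stand out by filled points in MSCs against open points in both sarcomas, and Faslg by a filled point in MFH1NR.

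Among genes detected on at least 1 array, which were 28 of the 37, 10 were at least 2-fold lower in COS1NR than in MSCs and 3 were at least 2-fold higher. The same share over all 10009 genes counted was 19.4% lower and 20.0% higher. In MFH1NR, 17 were at least 2-fold lower than in MSCs and 3 were higher, where the shares over all genes were 21.2% and 19.0%. Without scaling between arrays, the split in MFH1NR was 10 lower and 5 higher, where the shares over all genes were 12.7% and 40.6% and their median log2 ratio was 0.79. Among the 16 genes detected on all arrays, 2 were lower and 2 higher in COS1NR, beside shares of 15.1% and 20.7% over all genes so detected. In MFH1NR 8 were lower and 2 higher, beside 16.2% and 18.9%. Lower in both sarcomas were 10 of the 28, where the share over all genes was 12.9%. Both comparisons use the same MSC array, so nothing is read from their overlap. A gene detected in MSCs only could enter these counts only as lower, so they describe the arrays and carry no test. The median log2 ratio to MSCs was -0.72 in COS1NR over 26 genes with a ratio and -1.52 in MFH1NR over 28, beside 0.11 and 0.02 over all genes. With ratios taken as measured, without bounds, the medians were -0.78 and -1.74. Without scaling they were -0.34 and -0.83, beside 0.52 and 0.79 over all genes. With spike-in scaling they were -0.99 and -0.999, beside -0.16 and 0.55.

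**Figure D2:**
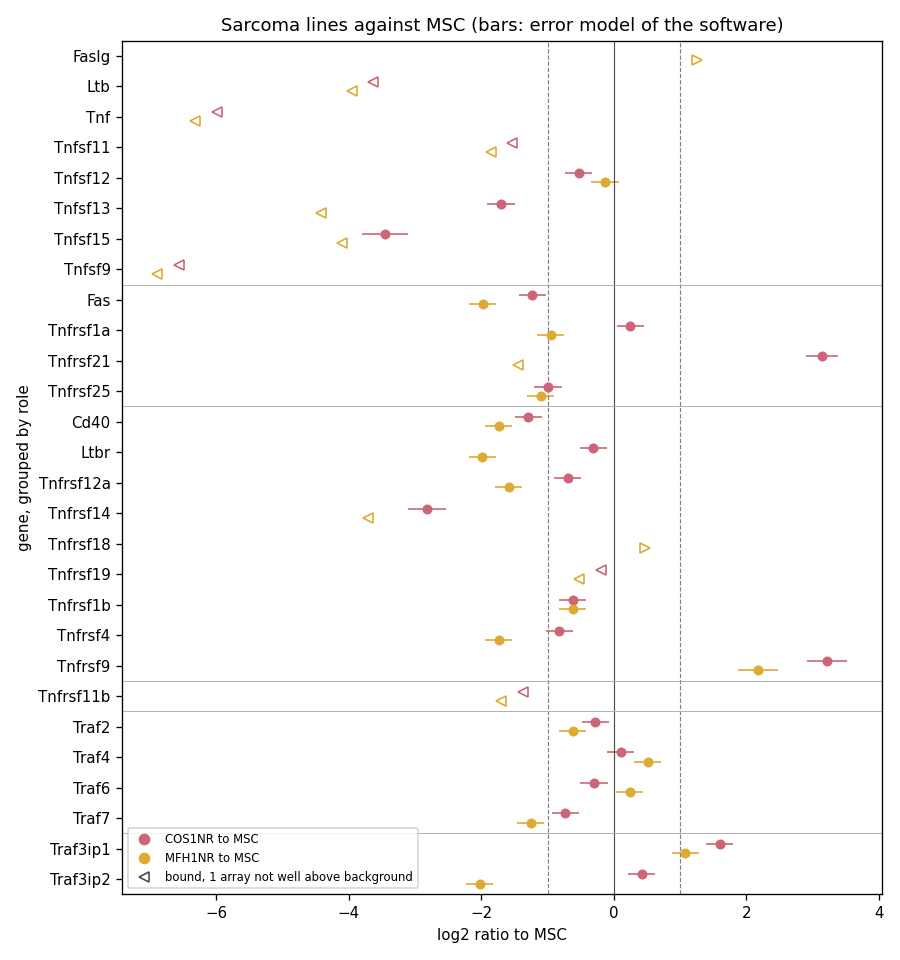
Log2 ratio of COS1NR and of MFH1NR to MSCs for the 28 genes detected on at least 1 array, with 1 point per comparison, bars for the error of the scanner software (1 SE) and open triangles for bounds that point away from 0; dashed lines mark 2-fold. Most ligands lie to the left of the lower line in both lines, Traf2, Traf4 and Traf6 lie inside the lines, and Tnfrsf21 has opposite signs, at 3.14 in COS1NR and at most -1.45 in MFH1NR.

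Few ligands were detected in the sarcomas. Of the 13, 7 were detected in MSCs, 3 in COS1NR and 2 in MFH1NR. In each sarcoma, 6 of the 8 that were detected on at least 1 array were at least 2-fold lower than in MSCs, beside shares over all genes of 19.4% in COS1NR and 21.2% in MFH1NR. Tnf, Ltb, Tnfsf9 and Tnfsf11, among the 6, were detected in MSCs alone and could be counted only as lower. Faslg was among the 8 but had no ratio of COS1NR to MSCs. The ligand detected on all arrays was Tnfsf12, which was under 2-fold from MSCs in both sarcomas.

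Tnf, the founding cytokine of the family and a product of activated macrophages, was measured by a probe printed 10 times on each array. Its intensity was 1423 ± 39.2 (SD over 10 spots) in MSCs, 6.67 ± 0.642 in COS1NR (9 spots, 1 spot called an outlier being left out) and 7.97 ± 3.801 in MFH1NR (10 spots). All 10 spots were well above background in MSCs and none was in either sarcoma. Against MSCs, the decrease of Tnf was at least 63.6-fold in COS1NR and 79.8-fold in MFH1NR. The macrophage markers moved in the same direction between these arrays (above), and their part in the difference was not tested. In these bulk cultures, fewer cells of a type and less RNA per cell cannot be told apart.

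Lymphotoxin α (Lta) and lymphotoxin β (Ltb) are encoded next to Tnf, one on either side, with no protein-coding gene between them in the gene table used. Ltb, which anchors lymphotoxin to the membrane, had 277 in MSCs and was not detected in COS1NR, at 7.18, or in MFH1NR, at 7.20. Its decrease was at least 12.4-fold in COS1NR and 15.5-fold in MFH1NR. Lta, the secreted partner, was not detected on any array, at 4.77, 6.92 and 6.95 in MSCs, COS1NR and MFH1NR. Of these neighbors, Tnf and Ltb thus gave a signal in MSCs, whereas Lta did not.

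The start regions of these neighbors, and that of Faslg, which was detected only in MFH1NR, are shown because Tnf, Ltb and Faslg were each detected in 1 cell type, while Lta, next to Tnf, was detected in none. Each is the window of 250 bases before and 50 after the start in RefSeq's GRCr8 assembly, read on the strand of the gene, with matches to the NF-κB consensus and to TATAAA, on either strand, in capitals. Lta lay at chr20:3623277-3623576 (+), Tnf at chr20:3626435-3626734 (+), Ltb at chr20:3634005-3634304 (-) and Faslg at chr13:76695454-76695753 (-).
Lta: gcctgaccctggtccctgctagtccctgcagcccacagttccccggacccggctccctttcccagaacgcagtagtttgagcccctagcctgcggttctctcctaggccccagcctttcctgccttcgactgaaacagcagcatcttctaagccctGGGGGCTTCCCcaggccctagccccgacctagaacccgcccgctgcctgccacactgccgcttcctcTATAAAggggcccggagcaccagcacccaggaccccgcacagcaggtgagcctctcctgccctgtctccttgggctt
Tnf: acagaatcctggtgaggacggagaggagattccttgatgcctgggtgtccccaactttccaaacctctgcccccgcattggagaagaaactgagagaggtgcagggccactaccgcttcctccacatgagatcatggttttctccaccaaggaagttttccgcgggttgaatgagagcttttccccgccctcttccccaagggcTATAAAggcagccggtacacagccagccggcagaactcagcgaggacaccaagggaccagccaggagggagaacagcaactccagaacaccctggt
Ltb: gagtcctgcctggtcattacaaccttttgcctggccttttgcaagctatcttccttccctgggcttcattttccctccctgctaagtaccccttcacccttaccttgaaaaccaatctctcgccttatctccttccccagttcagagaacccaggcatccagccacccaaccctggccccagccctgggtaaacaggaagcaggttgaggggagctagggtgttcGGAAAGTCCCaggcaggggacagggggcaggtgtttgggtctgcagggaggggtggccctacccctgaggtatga
Faslg: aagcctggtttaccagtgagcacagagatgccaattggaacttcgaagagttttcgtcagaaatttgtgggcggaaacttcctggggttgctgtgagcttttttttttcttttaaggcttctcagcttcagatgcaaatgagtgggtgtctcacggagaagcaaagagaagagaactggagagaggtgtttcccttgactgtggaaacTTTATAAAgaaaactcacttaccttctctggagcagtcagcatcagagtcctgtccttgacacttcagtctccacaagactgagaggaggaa
In Lta, the capitals mark overlapping matches to the NF-κB consensus on both strands, which begin 94 and 93 bases before the start. They also mark TATAAA at 27 bases. In Tnf they mark TATAAA at 46 bases, and in Ltb an NF-κB consensus on the opposite strand at 25 bases. In Faslg they mark TATAAA in overlapping matches on both strands at 42 and 40 bases. Among 27 of the 37 genes that had such a window, 7 held the NF-κB consensus (Cd70, Fas, Lta, Ltb, Tnfrsf8, Traf3ip2 and Traf7), against 7.51% of all 33469 windows. TATAAA was found in 6 (Faslg, Lta, Tnf, Tnfrsf17, Tnfsf11 and Tnfsf15), against 14.2% of all windows. TGANTCA, the letters of an AP-1 site, was found in 4 (Fas, Tnfrsf1b, Tnfrsf8 and Traf3ip2), against 7.33% of all windows. Genes with the NF-κB consensus included ones with no detected signal, such as Cd70, Lta and Tnfrsf8, and a match is a description of the letters only.

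Tnfsf9 (CD137 ligand), which costimulates T cells, had intensities of 2126 (MSCs), 13.0 (COS1NR) and 6.10 (MFH1NR), and was detected in MSCs alone. The decrease was at least 95.0-fold in COS1NR and at least 119-fold in MFH1NR. Cd70, a neighboring gene of the family that ligates CD27, was not detected on any array, at 4.997 for MSCs, 8.15 for COS1NR and 6.58 for MFH1NR.

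Tnfsf15 (TL1A), the ligand of Tnfrsf25, was highest in MSCs, with intensities of 305 (MSCs), 36.6 (COS1NR) and 7.18 (MFH1NR), where it was not detected. The log2 ratio to MSCs was -3.45 ± 0.35 (SE of the scanner software) in COS1NR, and Tnfsf15 was at least 17.1-fold lower in MFH1NR. Tnfsf13 (APRIL), a factor for B cells and plasma cells, showed the same order. The intensities were 381 (MSCs), 154 (COS1NR) and 13.5 (MFH1NR), with a log2 ratio of -1.70 ± 0.21 in COS1NR and a decrease of at least 21.4-fold in MFH1NR. Tnfsf12 (TWEAK) is encoded next to Tnfsf13 and did not share this pattern. It had 313 (MSCs), 285 (COS1NR) and 482.5 (MFH1NR), with log2 ratios of -0.53 ± 0.21 and -0.13 ± 0.21, and the sign in MFH1NR became positive without scaling and with median or spike-in scaling.

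Fas ligand (Faslg), which triggers apoptosis through Fas and is known from cytotoxic lymphocytes, was the ligand detected in MFH1NR alone. The 10 spots of its probe had an intensity of 72.6 ± 4.75 (SD) in MFH1NR, with a range of 65.0 to 82.2, against 6.81 ± 1.97 in MSCs and 7.71 ± 1.503 in COS1NR. All 10 spots were well above background in MFH1NR, and none was in MSCs or COS1NR. The spots are repeat prints of 1 probe on 1 array per cell type, so their SD covers neither cultures nor labeling. As bounds, Faslg was at least 2.39-fold higher in MFH1NR than in MSCs and at least 1.92-fold higher than in COS1NR. The former bound was under 2-fold after the normexp background correction, at a log2 ratio of 0.29, and with signals raised to the background limit, at 0.94. Of the markers of lymphocytes, Cd3e, Cd3g, Cd5, Ncr1, Klrd1 and Prf1 were not detected in MFH1NR. Of 7 T cell markers with a probe, only Cd3d was detected there, with a summed scaled intensity over the list of 0.693 against 1.02 in MSCs and 1.30 in COS1NR. Of 4 NK cell markers only Gzmb was, with a summed scaled intensity of 0.106 against 0.0956 in MSCs and 0.0614 in COS1NR.

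**Figure D3:**
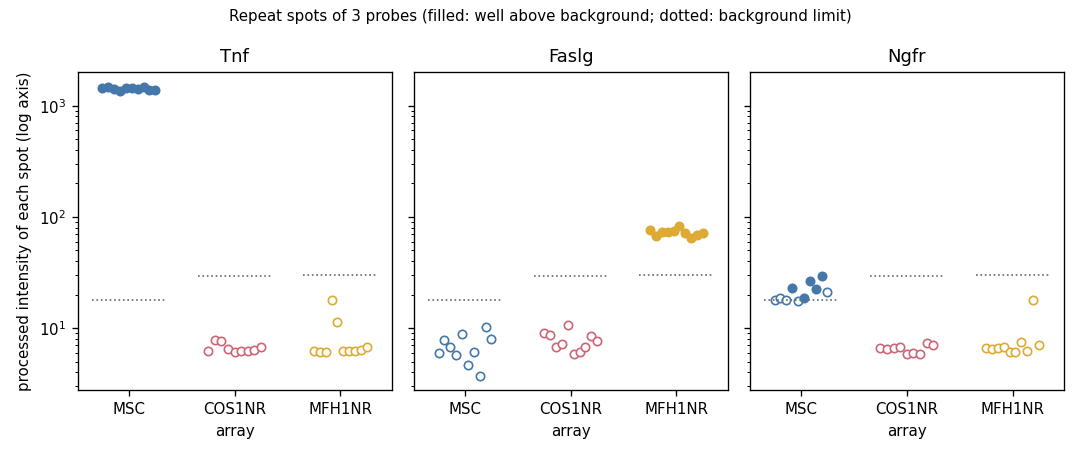
Processed intensity (log axis) of each retained spot of the probes of Tnf, Faslg and Ngfr, which were printed 10 times on each array; filled points were well above background and dotted lines mark the background limit of the array. The spots of Tnf lie near 1423 in MSCs and near background in both sarcomas, those of Faslg near 72.6 in MFH1NR, and those of Ngfr straddle the limit in MSCs.

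The other ligands, Cd40lg, Tnfsf4 (OX40 ligand) and Tnfsf10 (TRAIL), were not detected on any array, with intensities between 3.63 and 7.10. With Lta and Cd70, 5 of the 13 ligands thus gave no detectable signal in these cells. A signal under the limit of an array does not show that the transcript is absent.

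Of the RANK axis, the ligand and the decoy were detected in MSCs alone. RANKL (Tnfsf11) had intensities of 64.7 (MSCs), 20.5 (COS1NR) and 6.12 (MFH1NR), with a decrease of at least 2.89-fold in COS1NR and 3.63-fold in MFH1NR. Osteoprotegerin (Tnfrsf11b) had 57.9 (MSCs), 6.59 (COS1NR) and 6.63 (MFH1NR), with a decrease of at least 2.59-fold and 3.25-fold. Both were dim in MSCs, so that these bounds were small, and the bound of RANKL in COS1NR was under 2-fold after normexp, at a log2 ratio of -0.93, and those of osteoprotegerin without scaling, at -0.98 and -0.95. Neither gene gave a detected signal in the osteosarcoma line. RANK itself had no named probe.

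Of 16 genes that act in or are induced by RANK signaling in osteoclasts, 11 had a probe and 10 were detected in MSCs. A total of 8 were at least 2-fold lower in COS1NR and 9 in MFH1NR, and none was higher. The shares over all genes were 19.4% and 21.2% lower, and 20.0% and 19.0% higher. Itgb3 and Atp6v0d2 were detected in MSCs alone, so they could be counted only as lower. Acp5, the tartrate-resistant acid phosphatase of osteoclasts, had intensities of 24581 (MSCs), 102 (COS1NR) and 36.5 (MFH1NR). Ctsk, the collagenase cathepsin K, had 14774, 47.0 and 7209, with log2 ratios of -8.69 and -1.79. Tyrobp, Csf1r and Trem2, which act in myeloid cells generally, stood at log2 ratios of -8.28, -4.97 and -4.67 for COS1NR, against -8.36, -5.42 and -5.18 for MFH1NR. The list as a whole had medians of -3.82 (COS1NR) and -4.15 (MFH1NR), and Csf1r and Tyrobp are also on the list of macrophage markers.

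Of the 17 receptors, 13 were detected in MSCs, 11 in COS1NR, 10 in MFH1NR and 9 on all arrays. In COS1NR 4 were at least 2-fold lower than in MSCs and 2 were higher, and in MFH1NR 9 were lower and 1 was higher. Of the 17, 14 could be counted, and the shares over all genes were 19.4% lower and 20.0% higher in COS1NR and 21.2% and 19.0% in MFH1NR. Without scaling between arrays, 1 receptor was lower and 2 were higher in COS1NR, and 3 were lower and 2 higher in MFH1NR, where the shares over all genes were 14.3% and 31.6% and 12.7% and 40.6%.

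The receptors of Tnf were detected in all cell types. Tnfrsf1a, the death-domain receptor for soluble Tnf, had intensities of 21365 (MSCs), 33336 (COS1NR) and 18630 (MFH1NR). Its log2 ratio to MSCs was 0.25 ± 0.20 in COS1NR, a sign that turned with spike-in scaling, and -0.95 ± 0.20 in MFH1NR. Tnfrsf1b, which lacks a death domain and binds TRAF2, had 4425, 3777 and 4854 and a log2 ratio of -0.62 ± 0.20 in both sarcomas, which turned positive in MFH1NR without scaling. Both receptors were thus under 2-fold from MSCs in both sarcomas, where Tnf itself was not detected.

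Fas, the receptor of Fas ligand, was lower in both sarcomas, with intensities of 4564 (MSCs), 2558 (COS1NR) and 1954 (MFH1NR). Its log2 ratio was -1.23 ± 0.20 in COS1NR and -1.98 ± 0.20 in MFH1NR, and its second probe gave -1.18 and -1.81. Cd40, the receptor through which T cells activate antigen-presenting cells, had 2799, 1499 and 1416, with log2 ratios of -1.29 ± 0.20 and -1.74 ± 0.20. Its second probe gave -1.28 and -1.76, so that the ratios of both probes were close for each gene. Over the 1895 genes with a second probe, the median difference was 0.28 in COS1NR and 0.31 in MFH1NR. Without scaling, the decrease of both genes in COS1NR was under 2-fold, with log2 ratios of -0.84 for Fas and -0.90 for Cd40, and so was that of Cd40 in MFH1NR, at -0.98.

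Tnfrsf14 (HVEM), a receptor of lymphotoxin α and of LIGHT, was measured by 2 probes that differed. The probe with the higher mean log2 intensity over the arrays had intensities of 232.5 (MSCs), 43.3 (COS1NR) and 17.97 (MFH1NR), where it was not detected, with a log2 ratio of -2.82 ± 0.29 in COS1NR and a decrease of at least 13.0-fold in MFH1NR. The other had 1145 in MSCs and was detected in neither sarcoma, which gave decreases of at least 51.2-fold and at least 64.2-fold. Both probes placed Tnfrsf14 higher in MSCs than in either sarcoma.

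A receptor higher in both sarcomas was Tnfrsf9 (CD137), an inducible costimulatory receptor of T cells. The intensities were 30.2 (MSCs), 369.8 (COS1NR) and 229.6 (MFH1NR), and it was detected on all arrays. The log2 ratio to MSCs was 3.22 ± 0.30 in COS1NR and 2.17 ± 0.30 in MFH1NR. Its ligand Tnfsf9 moved the other way, from 2126 in MSCs to no detected signal in the sarcomas. The log2 ratio of Tnfrsf9 was between 1.99 and 3.62 in COS1NR and between 1.02 and 2.93 in MFH1NR over the 12 alternative settings that gave a value. Those on other probes, filters, the background limit, bounds and the series table could not change it, since its 1 probe was detected on all arrays.

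Tnfrsf21 (DR6), a death-domain receptor, had intensities of 48.7 (MSCs), 564 (COS1NR) and 6.74 (MFH1NR). It was high in COS1NR, low in MSCs and not detected in MFH1NR. The log2 ratio to MSCs was 3.14 ± 0.24 in COS1NR, and Tnfrsf21 was at least 2.73-fold lower in MFH1NR. The bound in MFH1NR was under 2-fold without scaling, at a log2 ratio of -0.69, and with spike-in scaling, at -0.93. Tnfrsf18 (GITR), a receptor of regulatory T cells, had intensities of 14.4 (MSCs), 8.70 (COS1NR) and 42.1 (MFH1NR) and was detected in MFH1NR alone. Its signal there was so close to background that the bounds were only 1.39-fold over MSCs and 1.11-fold over COS1NR. Tnfrsf18 passed 2-fold over MSCs without scaling, at a log2 ratio of 1.23, and over COS1NR where the ratio was taken without bounds, at 1.91.

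The remaining receptors that were detected were at least 2-fold lower in MFH1NR and under 2-fold in COS1NR, where Tnfrsf25 and Tnfrsf4 were at least 2-fold lower with spike-in scaling, at log2 ratios of -1.26 and -1.10. Ltbr, the receptor of membrane lymphotoxin, had 6877 (MSCs), 7297 (COS1NR) and 2927 (MFH1NR), with a log2 ratio of -1.99 ± 0.20 in MFH1NR and under 2-fold in COS1NR. Tnfrsf12a (Fn14), the receptor of TWEAK, had 21409, 17352 and 12060 by its brighter probe, with log2 ratios of -0.70 ± 0.20 and -1.58 ± 0.20, and its second probe gave -0.41 and -1.41. Tnfrsf4 (OX40), a costimulatory receptor of T cells, had 1584, 1177 and 801, with log2 ratios of -0.82 ± 0.20 and -1.74 ± 0.20. Tnfrsf25 (DR3), the receptor of TL1A, had 382, 253 and 300.2, and its log2 ratios of -0.99 ± 0.21 and -1.10 ± 0.21 lay on either side of the 2-fold threshold by less than their error. Without scaling, the decreases of Tnfrsf12a, Tnfrsf4 and Tnfrsf25 in MFH1NR were under 2-fold, at log2 ratios of -0.83, -0.98 and -0.35. That of Tnfrsf25 was also under 2-fold with median scaling, at -0.89, after normexp, at -0.86, and with spike-in scaling, at -0.59. An exception to this description was Tnfrsf19 (TROY), which had 25.7 in MSCs and was not detected in either sarcoma, so that its decrease was bounded at only 1.15-fold in COS1NR and 1.44-fold in MFH1NR.

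Not detected by these criteria were Tnfrsf8 (CD30) and Tnfrsf17 (BCMA), which are known from activated lymphocytes and plasma cells, with intensities between 3.83 and 6.49 on all arrays. The neurotrophin receptor Ngfr, also called CD271 and used to isolate marrow stromal cells, lay at the limit. Its probe had 21.3 ± 4.06 (SD over 10 spots) in MSCs, of which 5 spots were well above background, against 6.51 ± 0.517 in COS1NR (9 spots) and 7.75 ± 3.66 in MFH1NR (10 spots), of which none was. Since no more than 5 of 10 spots passed, Ngfr was counted as not detected in MSCs, and no ratio is given.

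The 4 TRAF genes with a named probe, Traf2, Traf4, Traf6 and Traf7, were all detected on all arrays. Of the 4, none was 2-fold apart from MSCs in COS1NR, and only Traf7 was in MFH1NR, too few genes to be set apart from the shares over all genes of 19.4% lower and 20.0% higher in COS1NR and of 21.2% and 19.0% in MFH1NR. Under other scalings, Traf4 was at least 2-fold higher in MFH1NR, at a log2 ratio of 1.27 without scaling and 1.03 with spike-in scaling, and Traf7 at least 2-fold lower in COS1NR with spike-in scaling, at -1.01. Traf2, the adaptor of Tnfrsf1b and CD40, had intensities of 2488 (MSCs), 2691 (COS1NR) and 2740 (MFH1NR). Traf6, which serves RANK and the Toll-like receptors, had 209, 223 and 417, and Traf4 had 207, 291 and 497. The log2 ratios of Traf2, Traf4 and Traf6 to MSCs lay between -0.62 and 0.51. Traf7 had 9860 (MSCs), 7780.4 (COS1NR) and 6981 (MFH1NR), with log2 ratios of -0.74 ± 0.20 and -1.25 ± 0.20, the latter of which was under 2-fold without scaling, at -0.50, and with spike-in scaling, at -0.74.

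The genes named for an interaction with TRAF3 are not TRAF proteins. Traf3ip2 encodes Act1, the adaptor of the IL-17 receptor, and had intensities of 5015 (MSCs), 8820 (COS1NR) and 2080.1 (MFH1NR). Its log2 ratio was 0.42 ± 0.20 in COS1NR and -2.02 ± 0.20 in MFH1NR, and its second probe gave 0.60 and -2.27. Traf3ip1 encodes a component of intraflagellar transport in cilia and was higher in both sarcomas, with 178 (MSCs), 705.5 (COS1NR) and 634.5 (MFH1NR). Its log2 ratio was 1.60 ± 0.21 and 1.08 ± 0.21, and in MFH1NR the increase was under 2-fold after normexp, at 0.88. Traf3ip3 was not detected on any array.

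Some ligands and their receptors differed in where they were detected. Tnf was detected in MSCs alone, whereas its receptors were detected in all cell types. In the pair of Tnfsf9 and Tnfrsf9, the ligand was lower and the receptor higher in both sarcomas. Faslg was detected in MFH1NR, where Fas had a log2 ratio of -0.75 ± 0.20 to COS1NR that turned to 0.04 with spike-in scaling. TWEAK and Fn14 were both detected on all arrays, and TL1A was detected in MSCs and COS1NR while DR3 was detected in all. CD40 and OX40 were detected on all arrays, and their ligands on none. These are descriptions of 3 arrays, and levels of different probes were not compared with each other.

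Between the sarcomas, which shared a slide, 6 genes were at least 2-fold below COS1NR in MFH1NR and 0 were at least 2-fold higher, where the shares over all genes were 14.2% and 11.7%. With spike-in scaling the split was 3 lower and 4 higher, where the shares over all genes were 6.69% and 32.9%. Without scaling it was 4 and 1, beside 9.57% and 18.7%, and after quantile normalization it was 6 and 1, beside 13.2% and 12.4%. Tnfrsf21 was at least 24.1-fold lower in MFH1NR, and Tnfsf13 was at least 6.59-fold lower. Traf3ip2 had a log2 ratio of MFH1NR to COS1NR of -2.45 ± 0.20, Ltbr one of -1.68 ± 0.20, Tnfrsf1a one of -1.20 ± 0.20 and Tnfrsf9 one of -1.05 ± 0.21. With spike-in scaling, the ratios of Ltbr, Tnfrsf1a and Tnfrsf9 were under 2-fold, at -0.89, -0.41 and -0.26. The ratios of Tnfrsf1a and Tnfrsf9 were also under 2-fold without scaling, at -0.84 and -0.69, and that of Tnfrsf9 with median scaling, at -0.99, and after normexp, at -0.97. Tnfrsf1b had the same scaled intensity in both lines, with a log2 ratio of 0.00 ± 0.20. The median of the 22 genes with a ratio was -0.58, beside -0.09 over all genes, and it turned to 0.27 with spike-in scaling, which moved the median of all genes to 0.71.

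**Figure D4:**
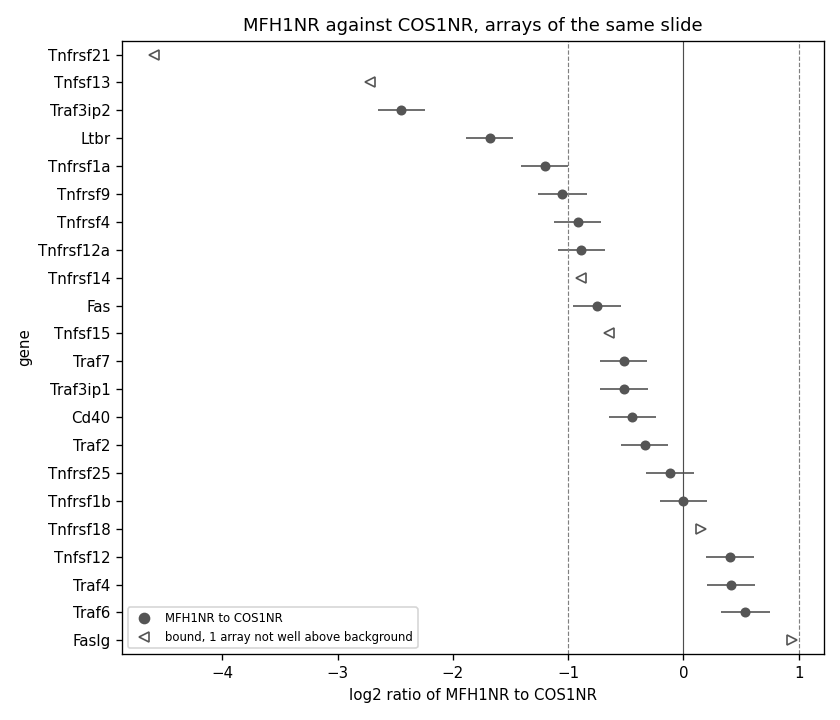
Log2 ratio of MFH1NR to COS1NR, arrays of the same slide, for the 22 genes detected on at least 1 of them with a ratio, in order of the ratio; bars give the error of the scanner software (1 SE), open triangles are bounds that point away from 0, and dashed lines mark 2-fold. Tnfrsf21, Tnfsf13, Traf3ip2, Ltbr, Tnfrsf1a and Tnfrsf9 lie beyond the lower line, and Faslg, at a bound of 0.94, lies just inside the upper one.

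The position of the genes was compared with their signals for 7 neighboring pairs of the family in which both had a probe and which were separated by at most 1 other protein-coding gene. Within Tnfsf12 and Tnfsf13, Lta and Tnf, Tnfsf9 and Cd70, and Tnfrsf1b and Tnfrsf8, one gene was detected on more arrays than the other. Ltbr and Tnfrsf1a were detected on all arrays, and both were lower in MFH1NR than in COS1NR by at least 2-fold. Tnf and Ltb were both detected in MSCs alone. Tnfrsf4 was detected on all arrays, and its neighbor Tnfrsf18 in MFH1NR alone.

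Downstream of the receptors, 24 of 31 genes of receptor-proximal and NF-κB signaling had a probe, and all 24 were detected on all arrays. In each sarcoma 10 were at least 2-fold lower than in MSCs, and 1 was higher in MFH1NR and 0 in COS1NR, beside shares over all genes of 19.4% and 21.2% lower and of 20.0% and 19.0% higher in COS1NR and MFH1NR, which also apply to the other lists. The median log2 ratio was -0.80 in COS1NR and -0.76 in MFH1NR. Named are the 5 with the largest mean change among those at least 4-fold apart from MSCs. Birc3, the inhibitor of apoptosis cIAP2, had log2 ratios of -4.29 and -3.49, and Nfkbie, an IκB protein, had -3.08 and -4.04. Nfkbia, the IκBα protein whose gene NF-κB induces, had intensities of 62235 (MSCs), 28047 (COS1NR) and 7017 (MFH1NR), with log2 ratios of -1.54 and -3.90. Bcl3 had -1.94 and -3.30. Cflar, the inhibitor of caspase-8 known as c-FLIP, had -2.52 in COS1NR and -1.01 in MFH1NR.

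Of 25 genes known to respond to TNF and NF-κB, 22 were detected on at least 1 array, 15 were at least 2-fold lower in COS1NR and 17 in MFH1NR, while 5 and 1 were higher. The median log2 ratio was -2.13 in COS1NR and -3.44 in MFH1NR. Vcam1, an adhesion molecule for leukocytes, had log2 ratios of -4.89 and -7.03, and the chemokines Cxcl2 and Cxcl10 had -4.07 and -3.60 in COS1NR and -5.91 and -5.15 in MFH1NR. The cytokine Il1b had an intensity of 30130 in MSCs and 1337 in COS1NR and was not detected in MFH1NR, and the survival gene Bcl2a1 had 974 in MSCs and was not detected in either sarcoma. The gene higher in both sarcomas was Tnfaip8, with log2 ratios of 2.19 and 3.31, which was chosen after its values were seen. Higher in COS1NR alone were Sod2, Il6, Cxcl1 and Nos2, at log2 ratios of 2.44, 1.44, 1.39 and 1.34. They too were named after their values were seen. Several of these genes, such as Il1b and Bcl2a1, are also known from macrophages, whose markers had median log2 ratios of -4.07 (COS1NR) and -4.83 (MFH1NR). The part of such cells in the differences was not tested.

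**Figure D5:**
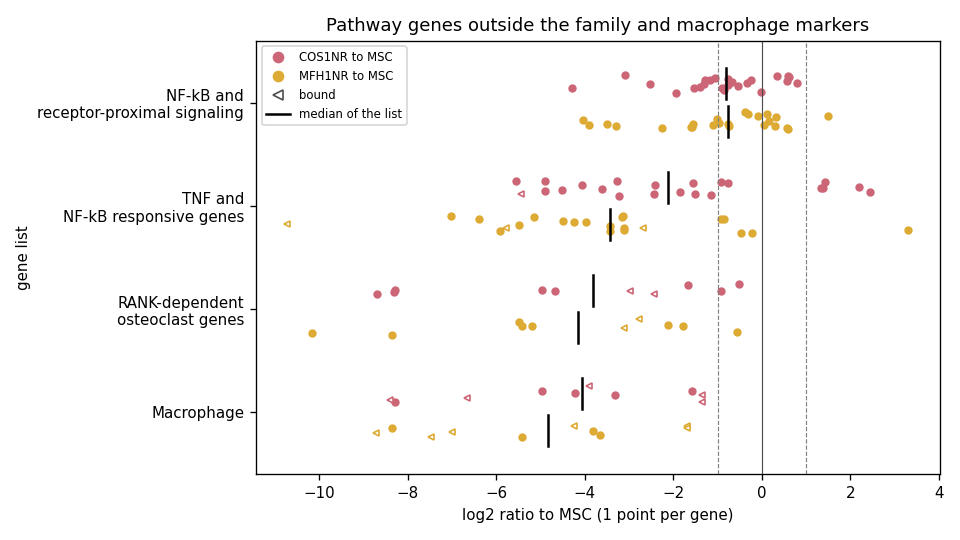
Log2 ratio to MSCs of the genes of 3 pathway lists and of macrophage markers, with 1 point per gene detected on at least 1 array, open triangles for bounds that point away from 0, black bars for the median of a list and dashed lines at 2-fold. The points of the NF-κB signaling genes lie around medians of -0.80 and -0.76, and those of the other lists reach further to the left, with medians of -2.13 to -4.83.

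Of the other markers, none of 3 B cell markers was detected on any array, with a summed scaled intensity of 0.0257 (MSCs), 0.0280 (COS1NR) and 0.0218 (MFH1NR). Both dendritic cell markers with a probe, Ccr7 and Cd83, were detected in MSCs, with a summed scaled intensity of 8.35 (MSCs), 0.568 (COS1NR) and 0.198 (MFH1NR). Of 4 endothelial markers, Kdr was detected on all arrays, Cdh5 in MSCs and COS1NR, and Pecam1 and Tek on none, with a summed scaled intensity of 0.579, 0.181 and 0.119. In MSCs 4 of 7 T cell markers were detected, with Cd3e, Cd3g and Cd5 among those that were not, and 1 of 4 NK cell markers.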

How the data were processed

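RNA of COS1NR, MFH1NR and MSCs, 0.5 µg each per the labels, was measured on 1 Agilent whole rat genome array per cell type. The authors deposited spot intensities of Agilent Feature Extraction, background-subtracted and detrended within each array, with dim spots set to a surrogate, and not scaled between arrays; the deposited series table held the same values. The labels name version 9.1 and the file headers version 10.5.1.1. The deposited columns also hold 0 or 1 calls of the software, such as well above background, and no other score was used.

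Control spots and outlier spots (187 to 217 per array) were left out, spots of a probe were averaged on the log2 scale, and the 75th percentile of the array was subtracted. A probe counted as detected if the larger part of its spots were well above background. RefSeq accessions of the design were matched to a gene table of GRCr8, which named 16815 of 41012 probes. The design was annotated on another build, so no probe positions are given, and the coordinates of start regions are those of RefSeq's GRCr8 table. The probe of highest mean log2 intensity over the arrays stood for a gene. No test was possible with 1 array per group, and a 2-fold difference or bound was counted. The members, gene lists and markers were chosen with earlier results of these data known. Values are given for every member at least 2-fold apart in a comparison, for RANKL, osteoprotegerin (RANK had no named probe), Tnf and its receptors, Fas, Faslg and Ngfr, and for up to 5 genes of each pathway list that were at least 4-fold apart from MSCs. Genes that respond to TNF and NF-κB and were higher in a sarcoma were named after their values were seen. The number of arrays limits the precision. Alternatives were no, median, quantile and spike-in scaling (7 probes), normexp with an offset of 50 on median spot signals, signals raised to the background limit, other probes, other filters, 3-fold and 1.5-fold thresholds and the series table, and, added after the data were seen, ratios without bounds. The counting step was checked on simulated data. Python 3.11.15, numpy 2.4.6, pandas 2.3.3, scipy 1.17.1, matplotlib 3.10.9, R 4.3.3 and limma 3.58.1 were used.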

Additional observations from a re-analysis of the deposited data

Results flagged for a closer look

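Tnfrsf21 was the gene of the family that was at least 2-fold apart from MSCs in opposite directions in the sarcoma lines, with a log2 ratio of 3.14 in COS1NR and a bound of -1.45 in MFH1NR. The difference between the lines was not tested, since each had 1 array. Over the alternative settings, the value ranged from 2.11 to 3.53 in COS1NR and from -3.61 to -0.69 in MFH1NR.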

How the results depend on the processing

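No paired analysis was possible because each cell type had 1 array, and for the same reason no replicate could be left out. Of 39 ratios of single genes at least 2-fold apart, 23 kept their direction and at least 2-fold under every alternative that gave a value, none changed sign, and 16 were under 2-fold in at least 1. Most of these were lost without scaling, where 12 of 39 were under 2-fold. Without scaling, the median log2 ratio of the family was -0.34 in COS1NR and -0.83 in MFH1NR to MSCs and -0.22 in MFH1NR to COS1NR, while that of all genes was 0.52, 0.79 and 0.27. The counts in MFH1NR against MSCs became 5 higher and 10 lower (all genes 40.6% and 12.7%), and 1 gene was higher in MFH1NR than in COS1NR, as was the case after quantile normalization (1) and with a 1.5-fold threshold (1), where the shares over all genes were 18.7%, 12.4% and 20.1%. With spike-in scaling, 13 genes were lower in COS1NR than in MSCs (all genes 24.3%), and the median was -0.999 in MFH1NR to MSCs and turned to 0.27 in MFH1NR to COS1NR, with 4 genes higher and 3 lower in MFH1NR than in COS1NR (all genes 32.9% and 6.69%). By construction, fewer genes remained where detection on all arrays was required, which left 16, with medians of -0.42 and -1.03. Of these, 2 were lower and 2 higher than MSCs in COS1NR (all genes 15.1% and 20.7%). In MFH1NR 8 were lower and 2 higher (all genes 16.2% and 18.9%). A 3-fold threshold left 6 lower in COS1NR and 1 higher in MFH1NR than in MSCs (all genes 12.7% and 9.91%), and normexp left 1 higher in MFH1NR (all genes 14.1%). Between the lines, 10 genes were lower and 2 higher in MFH1NR with no filter on dim probes (all genes 13.9% and 11.3%), where the median was -0.37, and likewise 10 and 2 without bounds (all genes 16.0% and 13.9%), and 11 were lower with a 1.5-fold threshold (all genes 25.3%). With signals raised to the background limit, the median between the lines was -0.33. The cause of the changes with scaling was not tested. Signal over background limits the values of dim genes, such as RANKL, osteoprotegerin, Faslg and Tnfrsf18.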
